A study of Saccharomyces cerevisiae W303 with 28 samples.

Results

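The outer 20 kb of the budding yeast chromosomes were examined for Scc1, the subunit that bridges the open side of the cohesin ring. Ends were defined by position, as the 1 kb windows whose middle lay within 20 kb of the first or last mapped position of each chromosome except chromosome 5, which carries the induced break. Windows were kept where the extract (input) coverage of HA wild type with a break, replicate 1, lay between 0.25 and 4 times its median. Of 600 windows at 30 ends, 396 were kept, out of 11630 kept windows among 12447 in the genome. The 396 windows belong to 28 ends, because the right ends of chromosomes 12 and 15 held none.

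Cohesin holds sister chromatids together and folds DNA into loops, and it collects along yeast chromosomes at preferred sites, most of all around centromeres. Pds5 binds the ring and regulates both its release and its maintenance on DNA, and Rad17 is a subunit of the checkpoint clamp that is loaded at damaged DNA. Chromosome ends carry silenced chromatin and repeated subtelomeric elements, whose reads often cannot be placed at 1 position.

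The study mapped Scc1 in the W303 background 4 h after galactose addition by ChIP-seq calibrated with Candida glabrata, and asked what cohesin does when a chromosome is cut at 1 site. All strains received galactose, and all but 1 Pk culture also received nocodazole, which depolymerises microtubules and arrests cells in mitosis. HA-tagged Scc1 (Scc1-6HA) was precipitated with the break from rad17 pds5-AID, pds5-AID, rad17 and wild-type cells (n = 2 libraries each), and from wild-type cells with an uncleavable site (n = 1). Pk-tagged Scc1 (Scc1-PK9) was precipitated once each from rad17 cells with the break, from wild-type cells with the break in the absence of nocodazole, and from wild-type cells with the break or with an uncleavable site. An untagged strain with the break, precipitated with the HA antibody, gave the background. The pds5-AID allele is a degron fusion; the labels do not mention auxin, and the remaining Pds5 was not measured. No mutant was mapped without the break. The labels leave it unsaid whether a pair of replicates stems from different cultures; the p-values reflect library-to-library spread, possibly technical. The treatment entry of the HA strain with the uncleavable site names break induction, against its title, and the title was followed.

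The level of an end is the log2 of its mean IP signal over its mean extract coverage, the extract being set relative to its own median. It keeps the calibration between libraries. The relative level is the same value minus the library's median over all 628 blocks of 20 kb, counted inward from the ends of all 16 chromosomes. Median IP coverage per end window was 22.2 to 93.9 in the 9 HA libraries and 34.0 in the untagged one. In the Pk libraries it was 45.2 in rad17 and 2.5 in wild type without nocodazole, too low for single ends. It was 57.2 in Pk wild type with the break and nocodazole and 9.67 without the break. These IP depths take the smallest value above 0 of a library as a coverage of 1. Median extract coverage per end window was 39.3 to 103. The extract values are not whole numbers, so these are coverage depths and not counts of reads. Extract coverage along the genome was uneven in HA wild type with the break, replicate 2 (SD of log2 coverage 0.495), in HA without the break (0.805) and in Pk without the break (0.608), against 0.231 to 0.286 in the others. The part of this unevenness in the ratios was not tested beyond repeating each comparison on the IP signal alone.

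Coverage of the ends themselves was partial. Of the 600 windows 34.0% were left out, all for low extract coverage, against 5.17% of the other windows, and 87 of them held no read in any extract. The kept window nearest the lower bound had 0.258 times the median and the nearest left-out window 0.244 times. All 20 windows were kept at 9 ends, at least 19 at 11 ends and at least 10 at 20 ends. The 8 ends with fewer were chromosome 10 right (9 windows), chromosomes 1 right and 16 left (8 each), chromosomes 6 left, 7 right and 10 left (6 each), chromosome 4 right (5) and chromosome 12 left (3). On chromosomes 1 right, 7 right, 12 left and 16 left the outermost kept window lay 12 to 14 kb from the end, so those values describe the inner side of the end.

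In wild-type cells with the break, Scc1 at the ends was close to the level of the rest of the genome. The median relative level over the 28 ends was -0.08 and 0.06 in the 2 HA libraries, and 14 of 28 group means lay above the library median. On the IP signal alone, without division by the extract, the medians were -0.21 and -0.19. Single ends spread from -1.36 to 0.73, with an SD over ends of 0.41. The highest was the left end of chromosome 3, with relative levels of 0.58 and 0.88. The left end of chromosome 6 had 0.49 and 0.47, and the left end of chromosome 12, with 3 kept windows, had 0.41 and 0.17. The lowest were chromosome 4 right (-1.18 and -1.53), chromosome 7 right (-0.58 and -0.77) and chromosome 9 left (-0.52 and -0.48). Chromosome 4 right is separated from the next end by more than its spread between replicates; most neighbours in between are not. The order was shared by the other tag, since HA and Pk wild type with the break correlated across the 28 ends at r = 0.98 (Spearman 0.97); ends are not replicates, and both tags share the same kept windows and sequence. The untagged precipitate had a median relative level of -0.14 at the ends. Its lowest values were at chromosome 12 left (-0.92) and chromosome 4 right (-0.90), which have 3 and 5 kept windows. Chromosome 4 right was thus low without a tag too. The genome level of the untagged precipitate was 1.01, against 4.71 and 4.86 in HA wild type and 3.15 and 3.49 in HA rad17 pds5-AID.

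**Figure D1:**
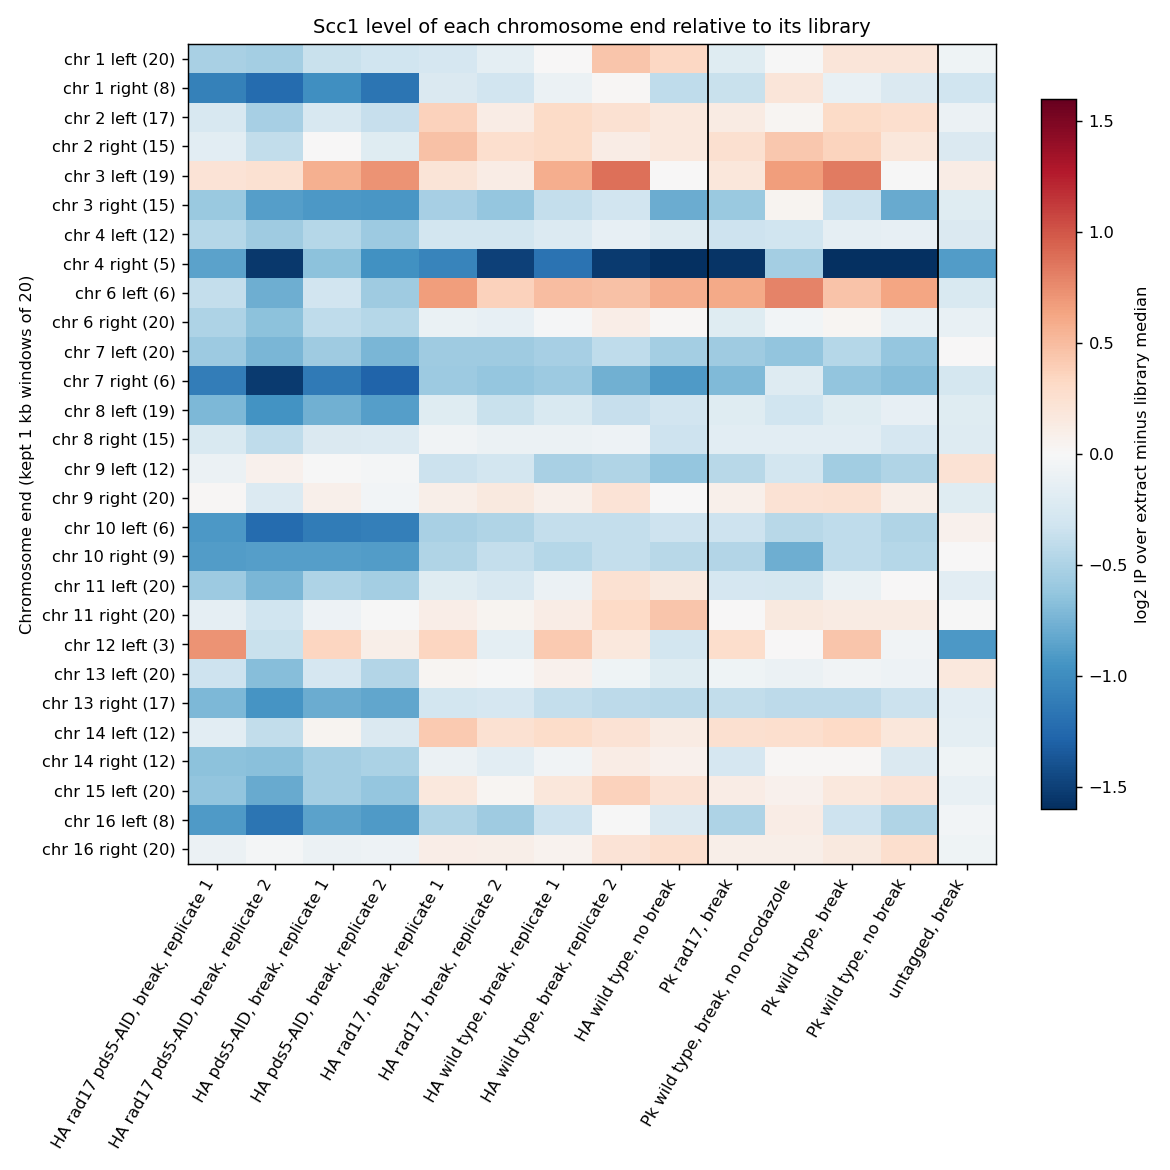
Relative level (log2 of IP over extract minus the library median) of each of the 28 measured ends (rows, with the number of kept windows) in each of the 14 IP libraries (columns; black lines part the HA, Pk and untagged libraries; the lowest values exceed the colour scale). The 4 libraries carrying pds5-AID are blue at most ends, chromosome 3 left is red in them and in the wild types with the break, and chromosome 9 left is paler in them than in wild type.

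Within the highest ends single windows held an IP signal of several times the library median. How wide these sites are was not measured. On chromosome 6 the window at 6001 to 7000 had an IP signal of 4.53 and 4.51 times the library median in wild type with the break. On chromosome 12 the window at 19001 to 20000 had 4.81 and 6.03 times. On chromosome 3 the highest window over the extract was 14001 to 15000, with relative levels of 1.50 and 4.64. Its IP signal was alike, 4.71 and 4.66 times the median, but the uneven extract of replicate 2 stood at 0.108 of its median there, against 0.966 in replicate 1.

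Over all measured ends wild-type Scc1 had its highest median next to the end. The median over ends of the relative level was 0.18 and 0.32 within 5 kb of the end, -0.06 and 0.00 at 5 to 10 kb, -0.36 and -0.28 at 10 to 15 kb and -0.38 and -0.34 at 15 to 20 kb. It returned to -0.09 in both libraries at 20 to 50 kb. The outer class rests on 15 ends with at least 3 kept windows and the next ones on 20, 22 and 25 ends, so the classes differ in their ends. On the 11 ends with at least 19 kept windows the medians were 0.32 and 0.54 within 5 kb, -0.07 and 0.01 at 5 to 10 kb, -0.41 and 0.01 at 10 to 15 kb and -0.39 and -0.17 at 15 to 20 kb. The outer class was the highest there too, while from 5 to 15 kb replicate 2 stayed level and replicate 1 did not.

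The pds5-AID libraries had their lowest medians in the inner 15 kb of the ends. At 15 to 20 kb their medians were -0.80 and -0.94, against -0.38 and -0.34 in wild type, at 10 to 15 kb they were -0.67 and -0.74, against -0.36 and -0.28, and at 5 to 10 kb they were -0.56 and -0.80, against -0.06 and 0.00. Within 5 kb they had 0.04 and -0.13, against 0.18 and 0.32 in wild type. At 20 to 50 kb they had -0.18 and -0.22, against -0.09 in both wild-type libraries. Both pds5-AID medians lay below both wild-type medians in each of the 5 classes. How the gap differed between classes was not tested, and in replicate 2 it was about as wide within 5 kb as at 10 to 15 kb. The untagged medians were -0.18, -0.11, 0.00, -0.11 and -0.03 over the same classes. The rad17 pds5-AID medians were -0.63 and -0.92 at 5 to 10 kb and -0.77 and -0.96 at 10 to 15 kb. At 15 to 20 kb they were -0.83 and -0.95, close to those of pds5-AID.

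**Figure D2:**
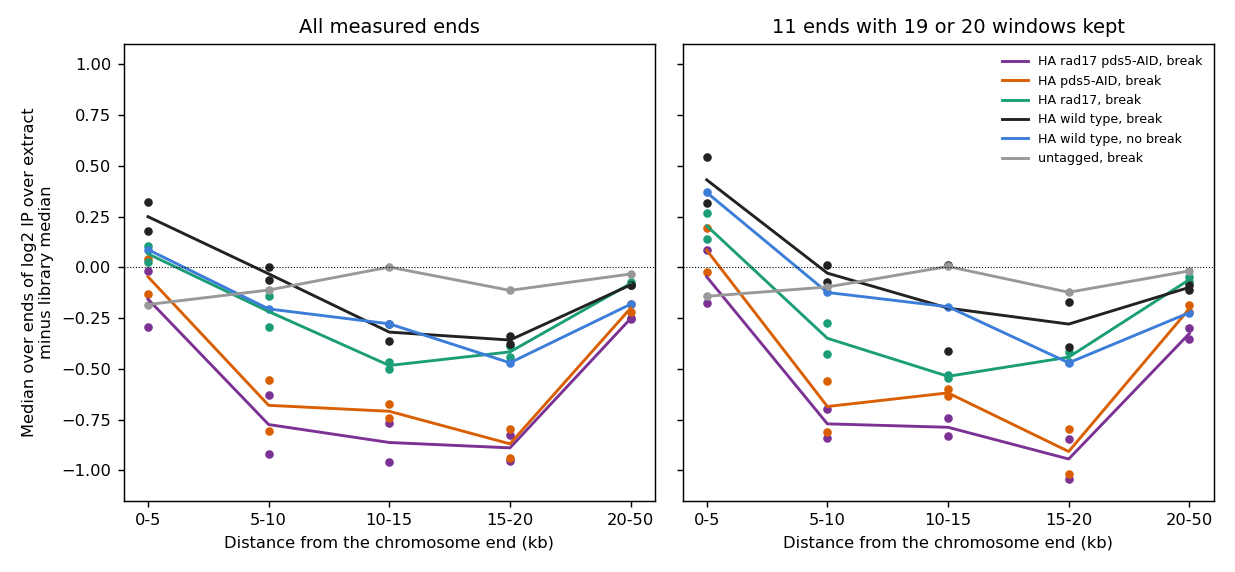
Median over ends of the relative level (log2) against the distance from the chromosome end in kb, for all measured ends (left) and for the 11 ends with 19 or 20 kept windows (right); points are libraries and lines join group means. The pds5-AID groups lie lowest from 5 to 20 kb in both panels and approach the other groups at 20 to 50 kb.

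The first comparison asked how Scc1 at the ends differs in pds5-AID cells. Calibrated levels fell at 26 of 28 ends (92.9%; limma, adjusted p under 0.05 over all 628 blocks), where 72.8% of all blocks fell. The median difference was -1.22 on the log2 scale at the ends (0.429 of wild type), against -0.73 over all blocks (0.604). The largest falls were at chromosome 1 right (-1.81), chromosome 6 left (-1.69), chromosome 15 left (-1.63) and chromosome 10 left (-1.50), each with an SE of 0.27. The smallest differences, at chromosome 4 right (-0.23) and chromosome 9 left (-0.30), did not pass. On each block's own residual spread none of the 628 blocks passed, and 25 ends had an unadjusted p under 0.05. The calibrated calls thus rest on the spread that limma shared over all blocks. A shift of a whole library enters all its blocks at once, so the calibrated p-values may be too small. With extracts left unscaled, as deposited, none passed either.

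Relative to the rest of the genome the ends also stood low in pds5-AID cells. Relative levels fell at 21 of 28 ends (75.0%), where 24.8% of all blocks fell, and rose at 1 end, where 34.6% of all blocks rose. The median difference was -0.44 at the ends and 0.05 over all blocks, and -0.53 and 0.04 with the untagged signal subtracted. On each block's own spread 16 ends fell and 1 rose, where 127 of all 628 blocks fell and 186 rose. Over the 11 ends with at least 19 kept windows 8 fell and none rose, with a median of -0.37.

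Chromosome 1 right had relative levels of -0.98 and -1.17 in pds5-AID, against -0.10 and 0.02 in wild type. Chromosome 6 left had -0.31 and -0.56 in pds5-AID, against 0.49 and 0.47 in wild type. Chromosome 15 left had -0.54 and -0.62 in pds5-AID, against 0.18 and 0.36 in wild type. At these 3 ends both pds5-AID libraries lay below both wild-type libraries, and the differences were -1.04 ± 0.08, -0.92 ± 0.14 and -0.85 ± 0.08 (SE; limma, adjusted p = 7.73e-05, 0.000808 and 0.000125). Chromosome 10 left followed with -0.72 ± 0.09 (adjusted p = 0.000286). The first, second and last of these 4 ends have 6 or 8 kept windows. Chromosome 15 left has 20.

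The same contrast without Rad17 uses other libraries throughout. In rad17 pds5-AID cells the calibrated levels were below rad17 at all 28 ends by the test. This is near the 95.1% of all blocks that fell, so that count is not particular to the ends. The median was -1.48 at the ends (0.357 of rad17) and -0.96 over all blocks (0.513). On each block's own spread 26 ends still passed, where 406 of all 628 blocks fell. The largest falls were at chromosome 6 left (-2.12), chromosome 1 right (-1.91), chromosome 15 left (-1.84) and chromosome 7 right (-1.74). The smallest were at chromosome 9 left (-0.71) and chromosome 12 left (-0.94).

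Relative levels fell at 21 of 28 ends in rad17 pds5-AID against rad17, where 22.9% of all blocks fell, and rose at 1, where 35.2% rose. The median was -0.46 at the ends and 0.06 over all blocks. With the untagged signal subtracted the medians were -0.63 and 0.07. On each block's own spread 14 ends fell and 1 rose, where 114 of all 628 blocks fell and 184 rose. Chromosome 6 left had -0.38 and -0.78 in rad17 pds5-AID, against 0.67 and 0.37 in rad17, a difference of -1.10 ± 0.14 (limma, adjusted p = 0.000307). Chromosome 7 right, with 6 kept windows, differed by -0.72 ± 0.12 (adjusted p = 0.00124). No library of one genotype overlapped the other at chromosome 6 left. In both contrasts 20 ends passed as lower, 95.2% of each list, and 6 passed as lower in neither. Over all blocks 125 fell in both, 80.1% of those that fell in pds5-AID against wild type and 86.8% of those that fell in rad17 pds5-AID against rad17. Across the 28 ends the differences correlated at r = 0.84 (Spearman 0.75), a description over ends that share their windows and extract filter but no library.

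**Figure D3:**
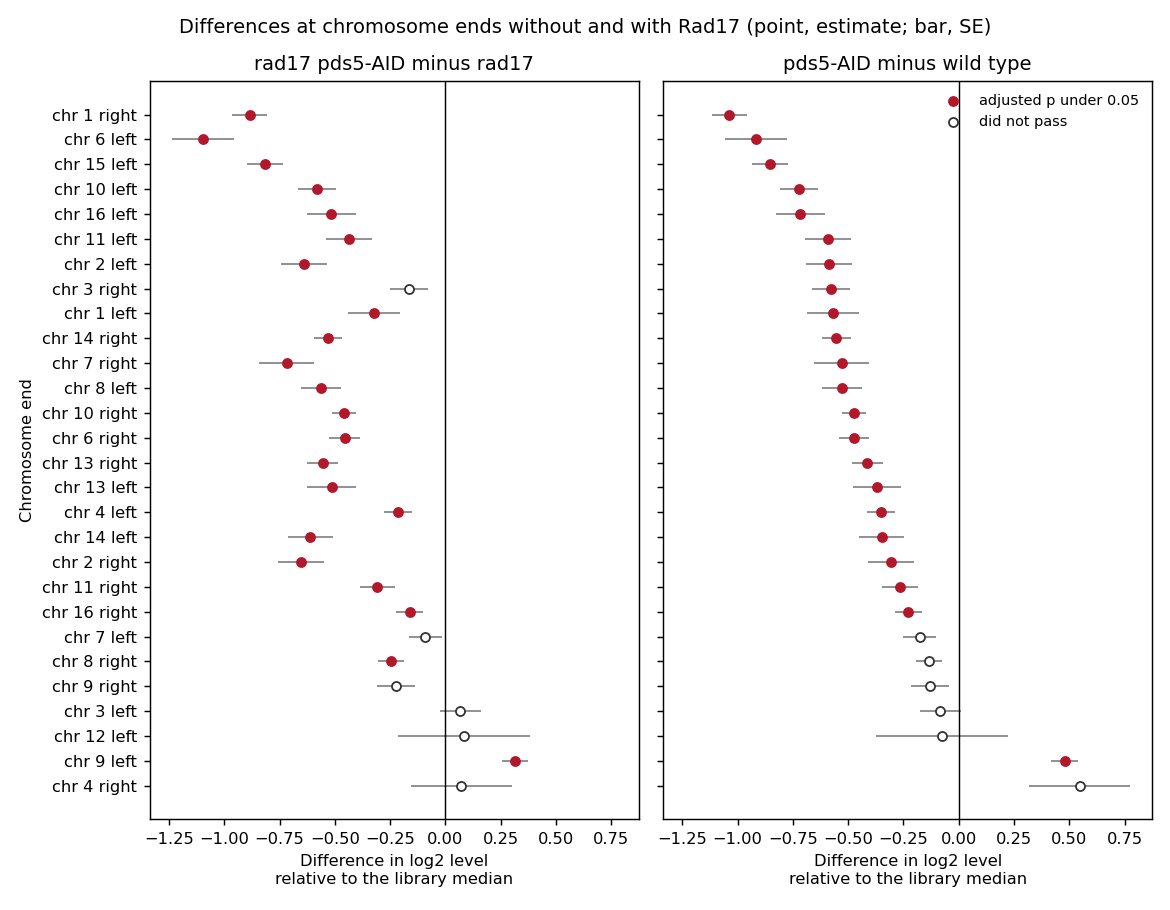
Difference in relative level (log2, point, with its SE as a bar) at each of the 28 ends, for rad17 pds5-AID minus rad17 (left) and pds5-AID minus wild type (right); filled points passed limma at an adjusted p under 0.05. In both panels 21 ends lie below 0 and pass, and chromosome 9 left is the 1 end that passes above 0.

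The strongest and the weakest window of each end were also read one by one. For the 20 ends with at least 10 kept windows, the highest and the lowest window were picked by IP signal in Pk wild type with the break, and read in the HA libraries as IP signal over the library median. That library enters neither comparison but is of the wild-type genotype, so a mutant with another profile tends to read low at the highest window and high at the lowest; the values are therefore set beside those of the other blocks, picked the same way. At the highest window both pds5-AID libraries lay below both wild-type libraries at 19 of 20 ends, where 70.7% of 547 other blocks did so. They lay above at 0 ends (9.14% of other blocks). The median log2 ratio was -0.85 at the ends and -0.44 in the other blocks. Both rad17 pds5-AID libraries lay below both rad17 libraries at 19 of 20 ends, where 73.5% of other blocks did so, and above at 0 ends (7.13%), with medians of -0.93 at the ends and -0.48 in the other blocks.

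At the lowest window the genotypes were closer, but here too the mutants lay below more often, and above less often, at the ends than in the other blocks. Both pds5-AID libraries lay below both wild-type libraries at 6 ends (6.58% of other blocks) and above them at 3 ends (42.2% of other blocks), with a median log2 ratio of -0.07, against 0.19 in the other blocks. For rad17 pds5-AID against rad17 the counts were 7 below (11.0% of other blocks) and 5 above (41.3%), with medians of -0.02 at the ends and 0.15 in the other blocks. The ends thus read lower than the other blocks at both windows. These values were picked after the levels of the ends had been seen and carry no test.

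The site at 9001 to 10000 on chromosome 2 shows the size of the change. Its IP signal was 1.68 and 1.86 times the library median in rad17 pds5-AID, 2.01 and 1.71 times in pds5-AID, 9.17 and 7.55 times in rad17 and 7.56 and 7.98 times in wild type. The untagged signal there was 1.36 times its median. At 19.5 kb from the right end of chromosome 16 the fall was smaller, with 5.17 and 6.17 times in rad17 pds5-AID, 5.44 and 6.20 times in pds5-AID, 8.26 and 8.39 times in rad17 and 8.02 and 8.16 times in wild type. Both sites were named after their values were seen.

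The left end of chromosome 9 went the other way. Its relative level was -0.01 and -0.03 in pds5-AID, against -0.52 and -0.48 in wild type, a rise of 0.48 ± 0.06 (SE; limma, adjusted p = 0.000342). In rad17 pds5-AID it was -0.09 and 0.07, against -0.35 and -0.30 in rad17, a rise of 0.31 ± 0.06 (adjusted p = 0.00200). The groups did not overlap in either contrast, and both rises held on the block's own spread (adjusted p = 0.0088 and 0.0202). Calibrated levels did not rise there, differing by -0.30 ± 0.27 (adjusted p = 0.273) and -0.71 ± 0.27 (adjusted p = 0.00883).

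This end has 12 kept windows, from 8 to 20 kb. At 17.5 kb the IP signal over the library median was 1.93 and 2.60 in rad17 pds5-AID, 2.28 and 2.50 in pds5-AID, 1.48 and 1.55 in rad17 and 1.45 and 1.49 in wild type. At 19.5 kb, the strongest site, it was 3.49 and 4.35 in rad17 pds5-AID, 3.35 and 3.85 in pds5-AID, 5.34 and 4.86 in rad17 and 4.76 and 4.47 in wild type. Both pds5-AID genotypes were thus lower at 19.5 kb and higher at 17.5 kb. At 18.5 kb the 4 genotypes overlapped, with 2.29 and 2.85 in rad17 pds5-AID, 2.68 and 2.80 in pds5-AID, 2.56 and 3.03 in rad17 and 2.43 and 2.76 in wild type, and at 8.5 kb pds5-AID (0.45 in both) lay below wild type (0.48 and 0.57). The untagged signal was high from 12 to 17 kb: 1.44 times its median at 12.5 kb, 1.51 at 13.5 kb, 1.71 at 15.5 kb and 1.69 at 16.5 kb, against 0.47 to 0.78 in wild type at the same 4 windows. With the untagged signal subtracted the rise in pds5-AID was 0.51 (adjusted p = 0.0007).

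**Figure D4:**
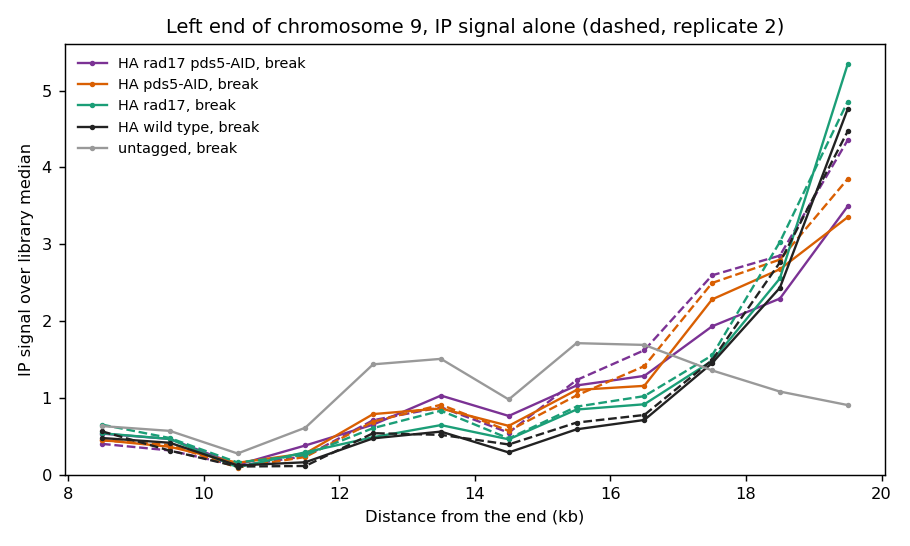
IP signal over the library median (no unit) against the distance from the left end of chromosome 9 in kb, for the kept windows of 4 HA genotypes with the break and the untagged strain; dashed lines are replicate 2. From 12 to 18 kb the pds5-AID genotypes lie above rad17 and wild type, at 19.5 kb below them, and the untagged signal is highest from 12 to 17 kb.

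The other ends at which relative levels did not pass as lower in either pds5-AID contrast were chromosomes 3 left, 4 right, 7 left, 9 right and 12 left. Chromosomes 7 left and 9 right had lower group means in both contrasts without passing. Chromosome 4 right differed by 0.55 ± 0.23 in pds5-AID against wild type (adjusted p = 0.0657) and chromosome 12 left by -0.07 ± 0.30 (adjusted p = 0.843). Both have few windows and SEs well above the median SE of 0.09. On the IP signal alone chromosome 4 right fell by 0.56 in rad17 pds5-AID against rad17 (adjusted p = 0.0032). At chromosome 3 left the relative level was 0.57 and 0.71 in pds5-AID, against 0.58 and 0.88 in wild type, a difference of -0.08 ± 0.09 (adjusted p = 0.471) with overlapping groups. Its calibrated level fell by 0.86 ± 0.27 (adjusted p = 0.00371).

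The next comparison asked what differs at the ends without Rad17. In rad17 cells calibrated levels were lower than in wild type at 28 of 28 ends by sign. The median was -0.51, against -0.43 over all blocks. In the fit without a replicate term only chromosome 3 left passed (0.637% of all blocks fell). Its level was 4.42 and 4.60 in rad17, against 5.29 and 5.74 in wild type, a fall of 1.01 ± 0.27 (limma, adjusted p = 0.0301) with no overlap. The next largest differences were at chromosome 1 left (-0.87, adjusted p = 0.0812), chromosome 16 left (-0.80, 0.152) and chromosome 11 left (-0.74, 0.201). The smallest were at chromosome 9 left (-0.27) and chromosome 2 right (-0.28). With the replicate number fitted as a block more ends passed, but their share of all blocks was not set beside them. That count is thus not a result about the ends. How many ends pass thus depends on how the replicate number is treated.

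Relative to the library median chromosome 3 left was again the 1 end that passed (0.796% of all blocks fell and 1.43% rose). With the replicate number as a block more ends passed, again without the share of all blocks beside them. Chromosome 3 left had 0.21 and 0.12 in rad17, against 0.58 and 0.88 in wild type, a fall of 0.56 ± 0.09 (limma, adjusted p = 0.0314). The median over ends was -0.07, against 0.01 over all blocks. Chromosome 1 left (-0.43 ± 0.12) and chromosome 16 left (-0.36 ± 0.11) did not pass (adjusted p = 0.100 and 0.116). The call at chromosome 3 left ended on the block's own spread (adjusted p = 0.325 for the calibrated and 0.195 for the relative level) and when any 1 of the 4 libraries compared was left out of the calibrated fit (-0.78 to -1.23). In the relative fit it ended without wild-type replicate 2 (-0.42, adjusted p = 0.0746) and without rad17 replicate 1 (-0.61, 0.0788) or replicate 2 (-0.52, 0.217). On the IP signal alone the relative fall was 0.57 (adjusted p = 0.0008). The number of ends called also moved when single libraries were left out.

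The 1 Pk pair gave the same order at the extreme. Among the 28 ends chromosome 3 left had the lowest rad17 minus wild-type difference, -0.65 (0.18 in rad17 and 0.83 in wild type), followed by chromosome 1 left (-0.39). The Pk median over ends was -0.10, against 0.00 over all blocks. Over the 28 ends the rad17 differences of both tags had a correlation of r = 0.79 (Spearman 0.76), and of 0.71 without chromosome 3 left. The 2 pairs share no library, but the ends share windows and sequence. The Pk pair has no replicates.

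With pds5-AID in both arms, calibrated levels were lower without Rad17 at 27 of 28 ends (96.4%). This is near the 93.8% of all blocks that fell, so the count is not particular to the ends. The median was -0.80 at the ends, against -0.67 over all blocks. The largest falls were at chromosome 3 left (-1.11), chromosome 4 right (-1.08), chromosome 14 left (-0.88) and chromosome 2 right (-0.88). The smallest differences were at chromosome 3 right (-0.51, adjusted p = 0.0572, the end that did not pass) and chromosome 10 left (-0.66). These calls were lost in several settings. On each block's own spread none of the 628 blocks passed (22 ends at an unadjusted p under 0.05), and no end passed with extracts as deposited. The number of ends called also fell without pds5-AID replicate 2 and without rad17 pds5-AID replicate 1.

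Relative to the library median limma called 0 ends in rad17 pds5-AID against pds5-AID, with 2 at an unadjusted p under 0.05, where 0.0% of all blocks rose and 1.11% fell. The median was -0.11, against 0.02 over all blocks, and -0.21, against 0.02, with the untagged signal subtracted. With the replicate number as a block more ends passed, without the share of all blocks beside them. Chromosome 3 left had the largest difference, with 0.22 and 0.24 in rad17 pds5-AID, against 0.57 and 0.71 in pds5-AID (-0.41 ± 0.09, adjusted p = 0.0798). Its groups did not overlap, and it passed on the IP signal alone (-0.38, adjusted p = 0.0036) and with the untagged signal subtracted (-0.44, 0.0275). The number of ends called moved when either wild-type library with the break, which enters the shared spread, was left out.

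Whether the rad17 difference depended on pds5-AID was tested as an interaction. No end passed by limma on either scale, with 0 at an unadjusted p under 0.05 for calibrated and 2 for relative levels; in all blocks 0.0% passed on the calibrated scale, and 0.159% rose and 0.318% fell on the relative scale. With the replicate number as a block 1 end passed on each scale, a count without the share of all blocks beside it. Chromosome 3 left had an interaction of 0.15 ± 0.13 (adjusted p = 0.713) on the relative scale. The largest relative value was at chromosome 4 right (-0.47 ± 0.32, adjusted p = 0.677), then chromosome 3 right (0.42 ± 0.12, 0.364). The count on the relative scale also moved when wild-type replicate 1 was left out.

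The last HA comparison set the break against the uncleavable site in wild-type cells, where the break lies on another chromosome than any of these ends. Calibrated levels differed at 0 ends by limma (2 at an unadjusted p under 0.05; 0.955% of all blocks rose and 0.318% fell). The median was 0.23 at the ends and 0.14 over all blocks. Chromosome 3 left differed most (0.89 ± 0.33, adjusted p = 0.352), then chromosome 12 left (0.75), chromosome 3 right (0.62) and chromosome 1 right (0.54). The differences nearest 0 were at chromosome 16 right (0.05) and chromosome 11 right (-0.05), the 1 end with the opposite sign. The count of calibrated calls moved when either pds5-AID library was left out.

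Relative levels rose at 4 of 28 ends, where 7.8% of all blocks rose and 11.0% fell. The arm without the break is 1 library, whose spread was taken from the other groups. Chromosome 3 left had 0.58 and 0.88 with the break, against 0.01 without it, a rise of 0.72 ± 0.11 (limma, adjusted p = 0.00386). Chromosome 3 right (0.45 ± 0.11, adjusted p = 0.0205), chromosome 1 right (0.37 ± 0.10, 0.0319) and chromosome 8 right (0.24 ± 0.07, 0.0497) followed. Chromosome 12 left, at 0.58 ± 0.37, did not pass. Only chromosome 3 left of the 4 also passed on the IP signal alone (0.83, adjusted p = 0.0004), which avoids the uneven extracts; chromosomes 1 left and 11 left passed there too, by 0.31 and 0.32, while over the extract they differed by -0.10 and -0.08. On each block's own spread no end passed (4 at an unadjusted p under 0.05), where 2 of all 628 blocks rose and 4 fell. Chromosome 3 left had an adjusted p of 0.0775 there. With wild-type replicate 2 left out more ends fell than rose, and the count also moved without rad17 replicate 1 or replicate 2.

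In the Pk pair chromosome 3 left again had the largest difference, 0.84 (0.83 with the break and -0.01 without it), followed by chromosome 12 left (0.50) and chromosome 3 right (0.47). On the IP signal alone chromosome 3 left remained the largest (1.04), followed by chromosome 1 left (0.49) and chromosome 3 right (0.40), and chromosome 12 left was at -0.01. The Pk median over ends was 0.06, against -0.01 over all blocks. Over the 28 ends the break differences of both tags had a correlation of r = 0.72 (Spearman 0.49), and of 0.56 (Spearman 0.43) without chromosome 3 left, in pairs whose no-break extracts are both uneven.

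The left end of chromosome 3 thus had the largest difference, on both scales, in rad17 against wild type, in rad17 pds5-AID against pds5-AID and in break against no break; the first and the last of these share the wild-type libraries with the break. It was followed window by window on the IP signal alone, a description made after its values were seen. Its 19 kept windows fall on both sides of the left-out window at 12001 to 13000. In the outer 12 kb the mean IP signal over the library median was 1.19 and 1.27 in rad17 pds5-AID, 1.62 and 1.76 in pds5-AID, 1.07 and 0.975 in rad17, 1.50 and 1.77 in wild type with the break and 0.713 without it. The wild-type and pds5-AID values with the break are close to each other, those of rad17 and rad17 pds5-AID are lower, and the value without the break is the lowest.

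The Pk libraries gave 0.935 in rad17, 1.21 without nocodazole, 1.71 in wild type with the break and nocodazole and 0.617 without the break, and the untagged library gave 0.733. The mean relative extract over these 12 windows was 0.573 to 0.711 in all 14 libraries. From 13 to 20 kb the order differed: 1.63 and 1.74 in rad17 pds5-AID, 1.87 and 2.14 in pds5-AID, 2.40 and 2.20 in rad17, 2.94 and 2.96 in wild type with the break and 2.30 without it. The pds5-AID genotypes were lowest in that inner segment, which holds the strong site at 14 to 16 kb.

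**Figure D5:**
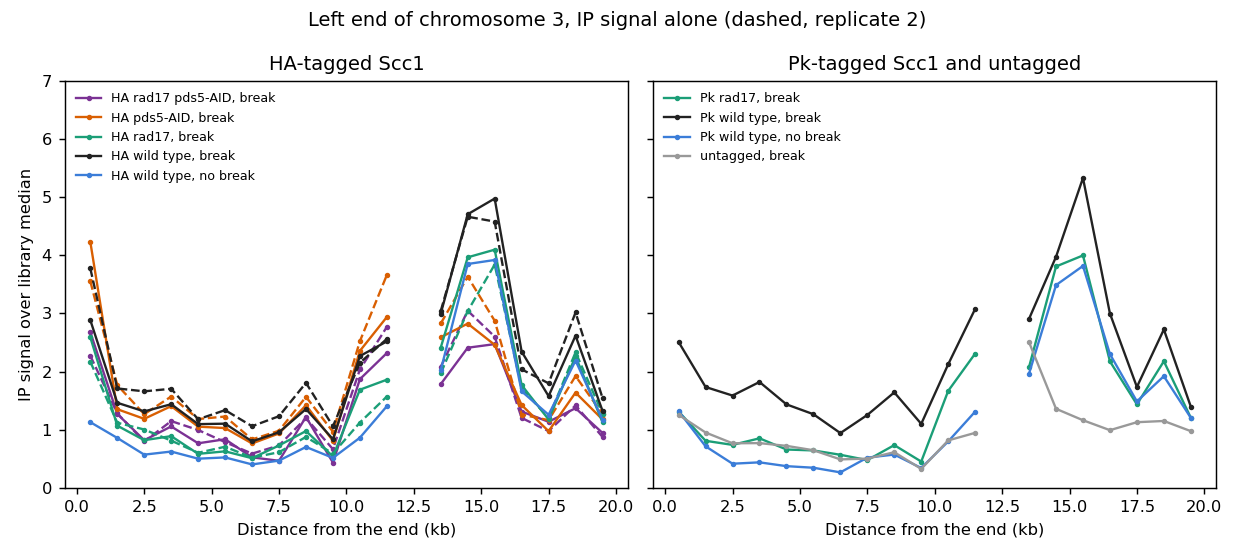
IP signal over the library median (no unit) against the distance from the left end of chromosome 3 in kb, for the HA libraries (left) and the Pk and untagged libraries (right); dashed lines are replicate 2 and the gap is the left-out window. In the outer 12 kb wild type with the break lies above rad17, and rad17 above or close to wild type without the break, with both tags. The pds5-AID libraries lie close to or above wild type with the break there and below it from 13 to 20 kb.

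The left-out window itself differed between strains. Its extract coverage relative to the library median was 0.860 and 0.788 in rad17 pds5-AID and 2.44 in the untagged strain, against 0.0571 to 0.148 in the other 11 tagged extracts. In the reference genome the silent mating-type cassette HML lies near this end, which is background; no gene was placed on these windows. Whether this difference in DNA bears on the Scc1 levels beside it was not tested.

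Of the remaining Pk comparison, wild type with the break without nocodazole against the same with nocodazole, the differences over ends had a median of -0.04 on the relative scale, from -0.44 at chromosome 12 left to 1.31 at chromosome 4 right. Both ends have few windows and the library without nocodazole is the shallow one, so no difference at a single end was readable at this depth. Its 28 ends had a median relative level of 0.00, against -0.08 with nocodazole.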

How the data were processed

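The 28 deposited files hold read coverage (signal) in 1 kb windows without a header. The authors calibrated the ChIP signal with Candida glabrata, per the labels and the series design. Extracts are unscaled coverage signal, as their smallest value above 0 is 1. The submitters' processing notes list MACS2, bedtools, SAMtools and Bowtie2 with no version or role. The sources used here give no genome build, so coordinates are those of the deposited windows and no gene was placed.

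Levels per 20 kb block were compared with limma 3.58.1 in R 4.3.3 over 9 HA IP libraries in 5 groups, with Benjamini-Hochberg adjustment over 628 blocks and a threshold of 0.05. The steps were tested on simulated data. The prior degrees of freedom were infinite for calibrated and 4.81 for relative levels, with 4 residual degrees of freedom. On the calibrated scale a shift of a whole library enters all its blocks, as in pds5-AID with genome levels of 3.74 and 4.28. The blocks are thus not independent measures of the spread between libraries. The calibrated p-values treat that spread as known and may be too small. The single HA library without a break was assumed to vary like the others. Pk and untagged groups have 1 library each and were not tested. Named ends per comparison are the 4 largest calibrated and the 4 largest relative differences, the 2 smallest, up to 4 of opposite sign, and the 3 highest and 3 lowest wild-type levels; others were named after their values were seen. The ends, the lists and the comparisons were chosen with earlier results of these data known.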

Additional observations from a re-analysis of the deposited data

Results flagged for a closer look

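A signal in data outside the comparisons was met in the left-out window at 12001 to 13000 of chromosome 3. The relative extract coverage of rad17 pds5-AID was 0.860 in replicate 1 and 0.788 in replicate 2 there, above the other tagged extracts, which reached at most 0.148. The IP signal in this window was 0.775 and 0.580 times the library median in rad17 pds5-AID. The window lay below the extract bound in HA wild type with a break, replicate 1, and entered no value of the end.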

How the results depend on the processing

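The counts of ends with a lower relative level in the pds5-AID contrasts kept their direction and stayed within 1.5 times under all alternatives. Leaving out 1 library each gave 19 to 24 ends in total for pds5-AID against wild type and 18 to 23 for rad17 pds5-AID against rad17. Other counts moved. Over the extract as deposited, calibrated calls were 0 for rad17, pds5-AID and rad17 pds5-AID against pds5-AID; on each block's own spread they were also 0 for these 3, and 0 for the relative levels of rad17 and of the break. With the untagged signal subtracted they were 0 for rad17 calibrated and 1 for rad17 pds5-AID against pds5-AID relative. The median of window ratios gave 7 and 2 ends for rad17 (calibrated, relative) and 2 for the break (calibrated). On relative levels the IP signal alone gave 3 for rad17, of which 2 were lower and 1 higher. It gave 2 for rad17 pds5-AID against pds5-AID, both lower. Its Pk end medians were -0.33 in rad17, -0.27 in wild type without nocodazole, -0.24 with it and the break and -0.45 without the break. The outer 10 kb alone gave 1 for the break (calibrated) and 1 for rad17 pds5-AID against pds5-AID (relative). With the replicate number as a block, 28 ends passed for rad17 calibrated and 3 relative, 3 for rad17 pds5-AID against pds5-AID relative, and 1 for the interaction on each scale. Deviations of same-numbered libraries correlated at 0.26 to 0.74 across blocks, so these libraries deviated together. Only 2 numbers exist and the labels state no shared batch, so what they share cannot be told from the labels. Replicate 2 had the higher genome level in each of the 4 genotypes with the break. Without 1 library each, counts ran from 0 to 13 (rad17 calibrated), 0 to 5 (rad17 relative), 1 to 28 (rad17 pds5-AID against pds5-AID calibrated), 0 to 1 (the same, relative), 0 to 1 (break calibrated), 2 to 5 (break relative, with the majority reversed at 5) and 0 to 1 (interaction relative). The cause of these changes was not tested. Over the settings of single named ends 575 values gave the same call, 53 lost it and 29 gained it. Depth limits the Pk libraries without the break and without nocodazole most.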
